A study of Homo sapiens with 3 samples.

Results

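Ankyrins and spectrins build the membrane skeleton, and transcripts of 4 of their genes were examined for RNA bound by CSTF2tau: the ankyrin genes ANK2 and ANK3 and the spectrin genes SPTBN1 and SPTAN1. The members were chosen by Ensembl gene ID (ENSG00000145362, ENSG00000151150, ENSG00000115306 and ENSG00000197694), so 4 of 13356 gene IDs and 776 of 202310 listed peaks belong to the set. The peak lists carry IDs without names, and the 4 names came with the choice of the members. The set was chosen with earlier results of these data known, among them that ANK2 had a large share of the reads, so levels are given as a description, without a test.

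The established neuroblastoma line BE(2)-C, of human origin and WT genotype, gave all data. RNA was crosslinked to protein by ultraviolet light, partly digested, recovered with an antibody to CSTF2tau and sequenced (sCLIP). There is 1 group of 3 replicates, called biological in the submitters' design text, with no other antibody and no input library used here. The lists hold 105203, 18346 and 78761 peaks with 736059, 108434 and 387784 reads in replicates 1, 2 and 3, where "reads" is the last number in each peak name. No source states what that number counts. These totals cover listed peaks only and are not the sequencing depth. RNA level was not measured, so a larger share can reflect more RNA or more binding per RNA, and these cannot be told apart. Markers of the cell line could not be checked, because 0 of the 13356 gene IDs matched the reference table.

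CSTF2tau, a close relative of CSTF2, binds RNA as a subunit of the cleavage stimulation factor. That factor contacts GU-rich RNA downstream of the cleavage site when a pre-mRNA is cut and polyadenylated. Alpha and beta spectrins pair into long flexible rods that crosslink short actin filaments beneath the plasma membrane. Ankyrins are adaptors that tie the spectrin layer to membrane proteins such as cell adhesion molecules and ion channels. In neurons this skeleton forms periodic rings along axons and organises the axon initial segment and the nodes of Ranvier.

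The 4 transcripts differed widely in recovered reads, and ANK2 held most of them. The set together held 0.527%, 0.601% and 0.375% of all listed reads in replicates 1, 2 and 3. ANK2 made up 86.5%, 94.9% and 88.0% of the set's reads in these replicates. Per kb of listed span, the stretch between a gene ID's first and last peak over all replicates, the order was ANK2, SPTBN1, SPTAN1, ANK3 in each replicate.

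ANK2 encodes ankyrin-B, which supports axonal transport and anchors ion transporters in heart muscle. Its listed span runs over 565 kb at chr4:113740306-114304950 on the plus strand (hg19). ANK2 had 3358 reads in 361 peaks in replicate 1, 619 reads in 90 peaks in replicate 2 and 1280 reads in 203 peaks in replicate 3. These reads were 0.456% (95% exact interval 0.441 to 0.472%), 0.571% (0.527 to 0.618%) and 0.330% (0.312 to 0.349%) of the listed reads, a mean of 0.452% ± 0.120 (SD, n = 3). The 3 intervals do not overlap, and they cover counting error only. ANK2 ranked 6, 10 and 5 among gene IDs by reads in replicates 1, 2 and 3.

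SPTBN1 encodes beta-II spectrin, the main beta subunit of non-erythroid cells. Its listed span is 212 kb long, at chr2:54684574-54896813 on the plus strand. SPTBN1 had 412 reads in 53 peaks in replicate 1, 27 reads in 6 peaks in replicate 2 and 112 reads in 26 peaks in replicate 3. Its shares were 0.0560%, 0.0249% and 0.0289%, a mean of 0.0366% ± 0.0169 (SD, n = 3). Replicate 1 stood above the other two, whose exact intervals of 0.0164 to 0.0362% and 0.0238 to 0.0348% overlap.

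SPTAN1 encodes alpha-II spectrin, the partner with which beta-II spectrin forms its rods. Its listed span covers 74.8 kb at chr9:131321019-131395828 on the plus strand. SPTAN1 had 102, 6 and 21 reads in 15, 2 and 6 peaks in replicates 1, 2 and 3. Its shares were 0.0139%, 0.00553% and 0.00542%, a mean of 0.00827% ± 0.00484 (SD, n = 3). Leaving out replicate 1 gave 0.00547%. The partner genes stood close to each other once length was taken into account. Reads per kb of listed span were 1.42, 1.59 and 1.88 times as high on SPTBN1 as on SPTAN1 in replicates 1, 2 and 3.

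ANK3 encodes ankyrin-G, the organiser of the axon initial segment. Its listed span is the only one of the set on the minus strand, 460 kb at chr10:61837649-62297325. ANK3 had 9 reads in 3 peaks in replicate 1, no listed peak in replicate 2 and 41 reads in 11 peaks in replicate 3. The shares were 0.00122% (95% exact interval 0.000559 to 0.00232%), 0% and 0.0106% (0.00759 to 0.0143%). The lists hold only peaks of at least 3 reads, so the absence in replicate 2 sets no limit on unlisted reads. The mean share was 0.00393% ± 0.00578 (SD, n = 3), and without replicate 3 it was 0.000611%.

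Replicate 3 also held more minus-strand reads in general. The minus strand took 63.2% of its nuclear reads, and 48.8% and 50.6% of those of replicates 1 and 2. The share of all nuclear minus-strand reads was 1.29 times as high in replicate 3 as in replicate 1, and that of ANK3 was 8.65 times as high. For the plus-strand members the ratio of replicate 3 to replicate 1 was 0.72 for ANK2, 0.52 for SPTBN1 and 0.39 for SPTAN1, and 0.71 for all nuclear plus-strand reads. The part of the strand difference in the values of ANK3 was not tested.

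**Figure D1:**
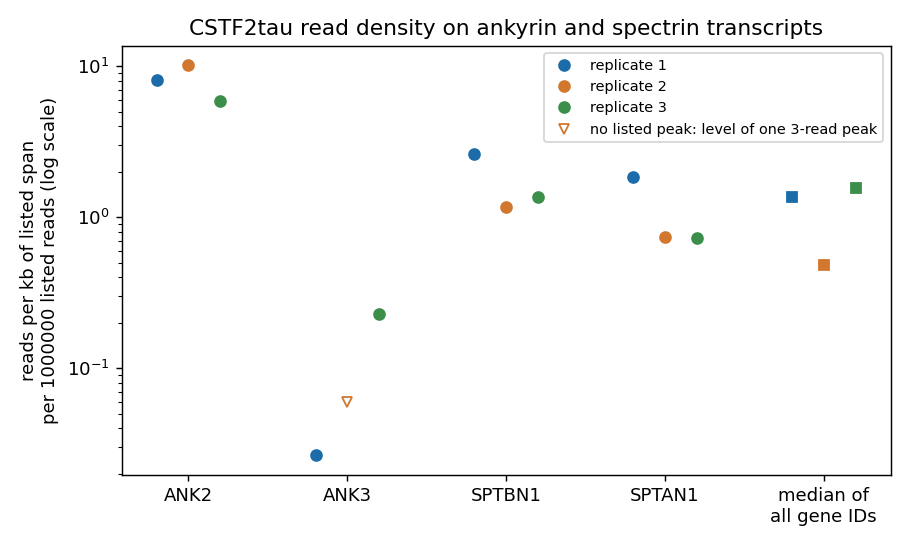
Reads per kb of listed span per 1000000 listed reads (log scale) for the 4 transcripts, with a point per replicate. Squares give the median of 7095 gene IDs with at least 5 loci, and the open triangle stands for ANK3 in replicate 2, which has no listed peak, at the level of a single peak of 3 reads, the smallest listed. ANK2 lies above the all-gene median in every replicate and ANK3 below it in replicates 1 and 3.

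The long genes of the set stood at opposite ends of this order. ANK2 and ANK3 have the longest spans of the set, at the 98.6 and 97.7 percentile of 7095 gene IDs with at least 5 loci. A locus is a set of overlapping peaks of a gene ID on a strand, merged over replicates. Per 1000000 listed reads, ANK2 had 8.08, 10.1 and 5.85 reads per kb, against a median over the 7095 gene IDs of 1.36, 0.486 and 1.55 in replicates 1, 2 and 3. These values placed ANK2 at the 91.4, 91.8 and 91.3 percentile. ANK3 had 0.0266, 0 and 0.230 reads per kb per 1000000, at the 2.03 percentile in replicate 1 and the 5.03 percentile in replicate 3. In replicate 2 the lower quartile of the 7095 gene IDs was 0 as well, so the 0 of ANK3 there sets no rank. In the units of the same density, SPTBN1 had 2.64, 1.17 and 1.36 and SPTAN1 1.85, 0.740 and 0.724. The values of these neighbours in the order overlap over replicates (1.72 ± 0.797 and 1.11 ± 0.647, SD, n = 3 each). Within replicates 1, 2 and 3, however, SPTBN1 was 1.42, 1.59 and 1.88 times as high as SPTAN1. The values of ANK2 and SPTBN1, and of SPTAN1 and ANK3, do not overlap over replicates. SPTBN1 stood at the 69.7, 62.8 and 44.3 percentile and SPTAN1 at the 59.4, 55.4 and 22.3 percentile.

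Peaks were small everywhere in the set. The median ANK2 peak had 7, 5 and 5 reads in replicates 1, 2 and 3, against 5, 4 and 4 over all listed peaks. Its highest peak had 63, 30 and 25 reads. The highest peak of SPTBN1 had 29, 7 and 19 reads, that of SPTAN1 had 18, 3 and 5, and no ANK3 peak had over 7. SPTBN1 peaks had a median width of 94, 60.5 and 69 nt and ANK2 peaks 75, 83 and 73 nt, against 79, 72 and 69 nt over all peaks, so neither gene was wider in all 3 replicates. The stretch of at most 4 nt that each line gives inside its peak lay near the middle, at a median of 49.1%, 49.2% and 49.2% of the peak from its 5' edge for ANK2, against 50%, 50% and 50.5% for all peaks.

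The numbers within peak names skipped values, and no source states why. On ANK2 the highest number was 536, 238 and 459, so listed peaks made up 67.4%, 37.8% and 44.2% of the numbers in replicates 1, 2 and 3, against 45.6%, 39.8% and 47.4% over all gene IDs. No peak of the 4 genes had exactly the same coordinates as a peak of another gene ID.

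The ANK2 reads lay almost wholly in the 5' part of the span. When the listed span was divided into 10 equal bins from 5' to 3', 95.6%, 99.0% and 92.1% of the ANK2 reads of replicates 1, 2 and 3 fell in bins 1 to 5 (mean 95.6% ± 3.46, SD, n = 3). Bins 2 to 4 alone held 79.9%, 48.8% and 71.9%. Bin 7 had no read in any replicate, and the longest stretch without a listed peak was 62.0 kb, at chr4:114073841-114135807. Bins 8 to 10 held 42, 6 and 50 reads.

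Within that 5' part the replicates differed. Replicates 1 and 3 peaked in bin 3, with 1270 and 393 reads, while replicate 2 had 60 reads there. In replicate 2 the fullest bin was the first, with 219 of 619 reads or 35.4%, against 4.79% in replicate 1 and 9.14% in replicate 3. Across the 10 bins, Spearman's rho was 0.95 for replicates 1 and 3, 0.66 for replicates 1 and 2, and 0.71 for replicates 2 and 3. The bins share library totals and a single gene, so these values describe the profiles.

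**Figure D2:**
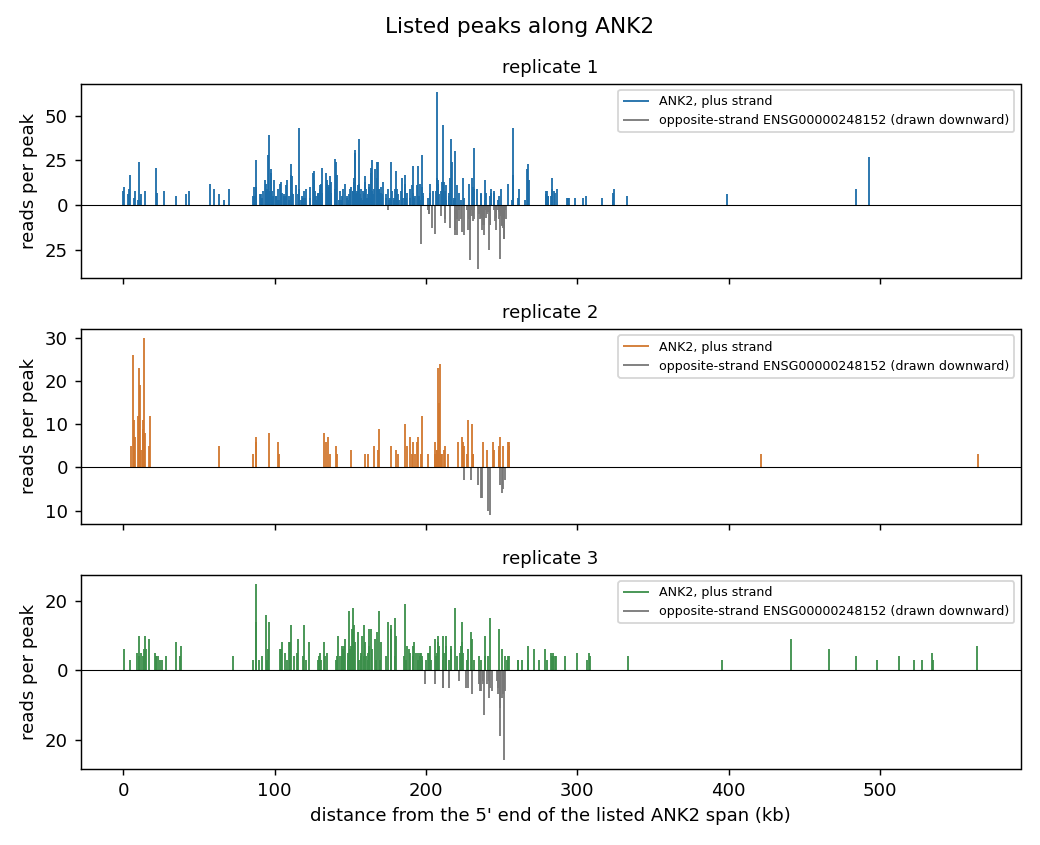
Reads of each listed peak along ANK2 in the 3 replicates, by distance in kb from the 5' end of the listed span; bars drawn downward are peaks of ENSG00000248152 on the opposite strand. ANK2 peaks crowd into the 5' part in all 3 panels, and replicate 2 has a separate group of tall peaks near the start.

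The contrast between both ends was tested over all gene IDs. Reads in the last 10% of the listed span (3' end) were set against reads in the first 10% (5' end), for 6382 gene IDs with at least 5 loci and at least 10 reads at both ends together. An exact two-sided binomial test on summed reads was adjusted by Benjamini-Hochberg over all of them. It covers counting error only, since listed reads of a peak may not be independent and the sum leaves out the spread between replicates. A call needed an adjusted p below 0.05 and no replicate with the opposite or no difference among those with reads at either end. Among the 4 genes, 1 was called at the 5' end, where 14.1% of all tested gene IDs were called, and 1 at the 3' end, where 18.1% were called.

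ANK2 was the gene called at the 5' end. The 3' end had 0 reads and the 5' end 161 in replicate 1, 3 and 219 in replicate 2, and 25 and 117 in replicate 3. The 5' end was thus higher in all 3 replicates, although replicate 3 had some reads at the other end. The log2 ratio of 3' over 5' reads was -4.13, with 0.5 reads added to each end (exact binomial test, adjusted p = 7.9e-110). By this ratio ANK2 ranked 74 from the bottom among the 6382 gene IDs. When each end was reduced to its outermost locus, the log2 ratio was -1.28 and the call was lost (exact binomial test, adjusted p = 0.51). Counting peaks in place of reads gave -3.01 (exact binomial test, adjusted p = 4.5e-10).

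SPTAN1 was called at the 3' end on few reads. The 3' end had 23 reads and the 5' end 3 in replicate 1, 3 and 0 in replicate 2, and 3 and 0 in replicate 3, which gave 3.08 on the log2 scale (adjusted p = 1.3e-05 by the exact binomial test). Most of these reads came from replicate 1, where 23 reads lay in the last 2 kb of the span, against 0 in replicates 2 and 3. Without replicate 1 too few reads were left for the test. Limited to peaks whose p was no higher than the median of their replicate, the log2 ratio was 0.57 and the call was lost (exact binomial test, adjusted p = 0.49). The span was redrawn from the peaks kept, so these ends are not those of the full span. The part of the moved ends in this loss was not tested.

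SPTBN1 had more 3' than 5' reads in 2 of 3 replicates and was not called. The 3' and 5' ends had 136 and 23 reads in replicate 1, 3 and 9 in replicate 2, and 28 and 12 in replicate 3. The summed log2 ratio was 1.91 (exact binomial test, adjusted p = 7.2e-17), but replicate 2 ran the other way. Without replicate 2 the log2 ratio was 2.21 and the gene was called, and without replicate 1 it was 0.55 (exact binomial test, adjusted p = 0.38). Over all gene IDs with at least 5 loci, the log2 ratio of the ends was -0.18, 0.81 and -0.25 in replicates 1, 2 and 3, so replicate 2 leaned to the 3' end in general and to the 5' end on SPTBN1.

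ANK3 had 6 and 0 reads at the 3' and 5' ends in replicate 1, none in replicate 2, and 7 and 10 in replicate 3. Its log2 ratio was 0.36 (exact binomial test, adjusted p = 0.79), and the direction differed between the replicates with reads.

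**Figure D3:**
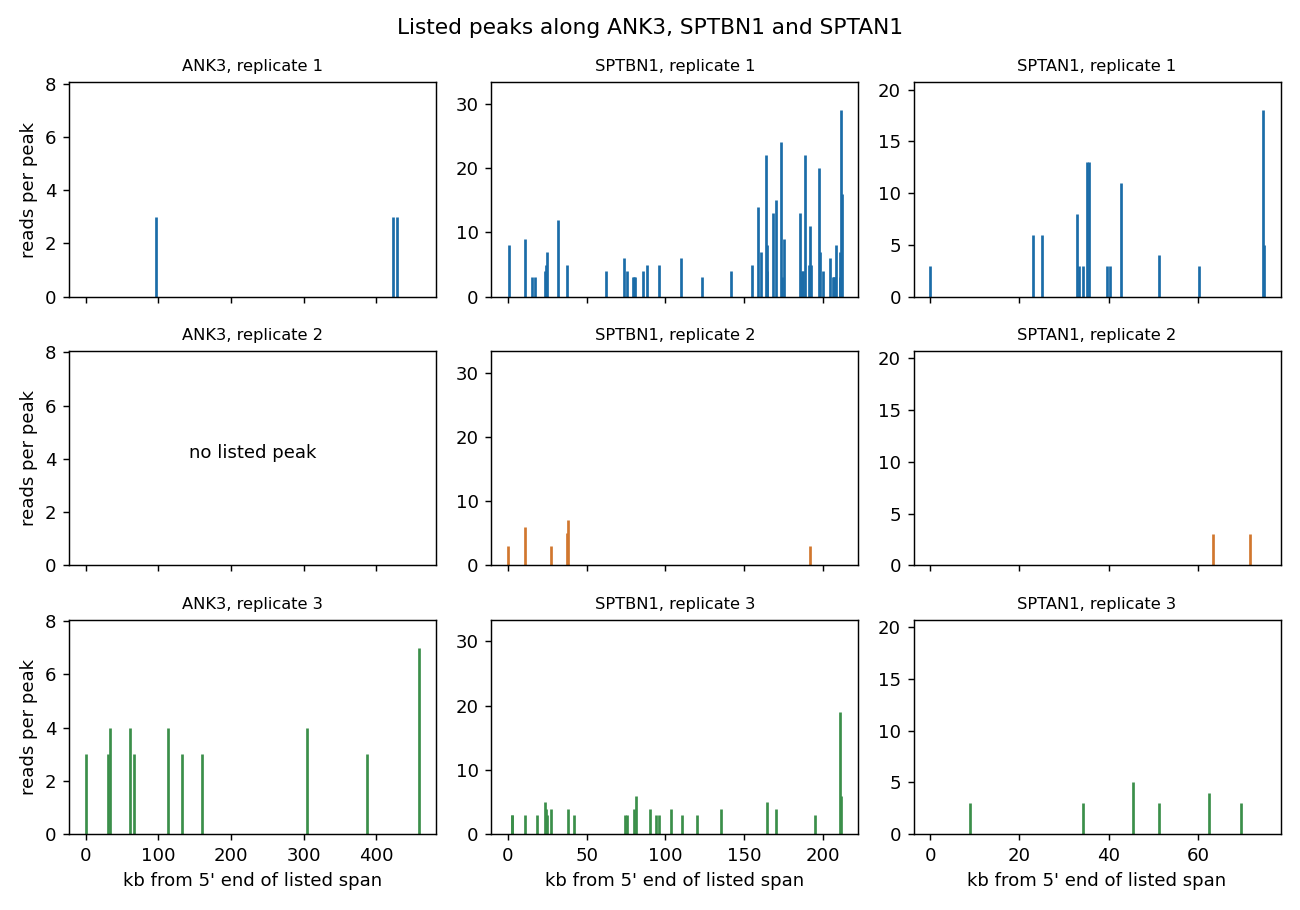
Reads of each listed peak along ANK3, SPTBN1 and SPTAN1 in the 3 replicates, by distance in kb from the 5' end of each listed span. SPTBN1 shows a dense run of tall peaks towards the 3' end in replicate 1 and a single tall peak there in replicate 3, and ANK3 has no listed peak in replicate 2.

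On SPTBN1 the reads of replicate 1 rose in number towards the 3' end, while those of replicate 2 lay near the start. Bins 8, 9 and 10 had 73, 97 and 136 reads in replicate 1, or 74.3% of its SPTBN1 reads together. In replicate 2 bins 1 and 2 had 24 of 27 reads. In replicate 3 bins 1 and 2 had 35 of 112 reads and bin 10 had 28. In bins 1 to 5 lay 22.6%, 88.9% and 58.0% of the gene's reads by replicate. Spearman's rho across the 10 bins was 0.44 for replicates 1 and 2, 0.48 for replicates 1 and 3, and 0.62 for replicates 2 and 3, and the matching Pearson's r was -0.0011, 0.42 and 0.55. The last 2 kb of the span held 61 reads in replicate 1 and 25 in replicate 3, 14.8% and 22.3% of the gene's reads there, and none in replicate 2.

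SPTAN1 reads of replicate 1 were mostly internal. Its fullest bin was the fifth, with 40 of 102 reads, and bin 10 followed with 23. In replicate 3 the fullest was bin 7, with 8 of 21 reads, and replicate 2 had reads in bins 9 and 10 only. On ANK3, replicate 3 had 10 of its 41 reads in bin 1 and 7 in bin 10, with peaks in 7 of the 10 bins. Its longest stretch without a peak was 144 kb.

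**Figure D4:**
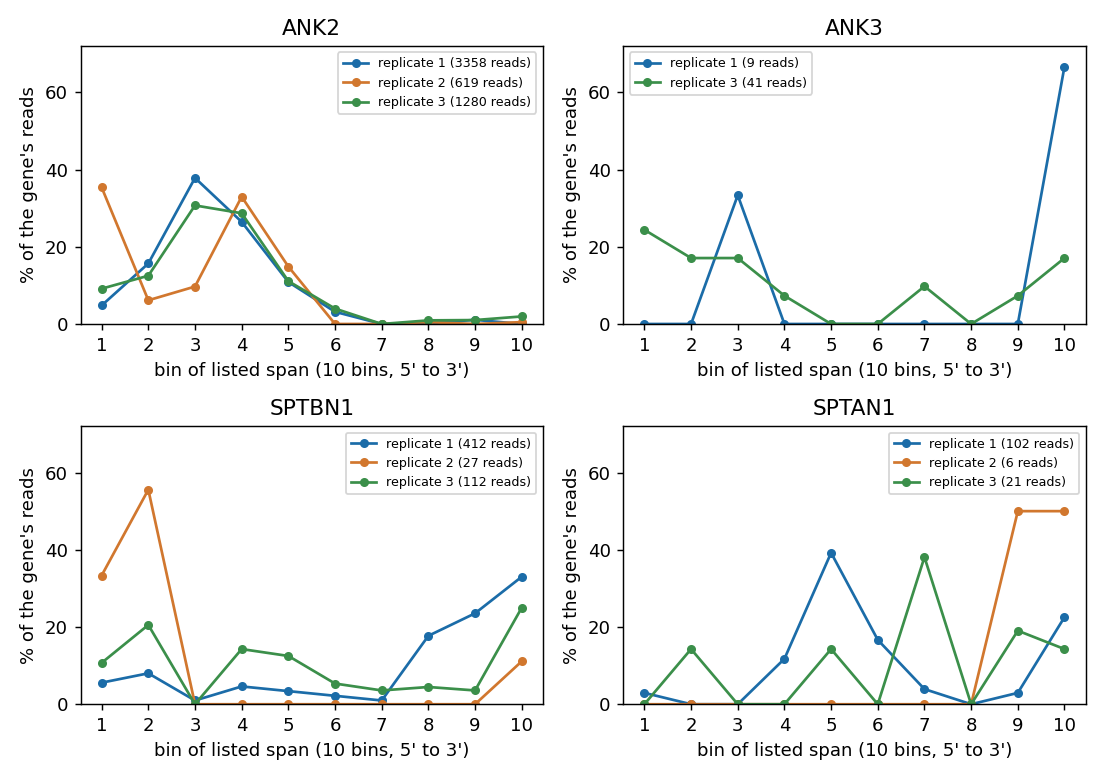
Percent of each gene's reads in 10 equal bins of its listed span, from 5' to 3', with a line per replicate and the reads per gene in the legend. ANK2 is concentrated in bins 1 to 5 in all 3 replicates, while the lines of SPTBN1, SPTAN1 and ANK3 rest on few reads in replicate 2 or none, and for SPTBN1 the fullest bin is 10 in replicates 1 and 3 and 2 in replicate 2.

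Recovery of the same positions in different replicates was compared next. ANK2 had 517 loci, of which 17 were found in every replicate, 83 in 2 replicates and 417 in a single one. Loci in 2 or 3 replicates were 100 of 517, or 19.3% (95% exact interval 16 to 23.0%), against 8.51% of the 181665 loci of all other gene IDs. Fisher's exact test, two-sided and adjusted over 7095 gene IDs, gave an adjusted p of 1.2e-11. The test takes loci as independent, which loci of a single gene may not be, and its p does not measure the spread between replicates. ANK2 was also chosen with its large share of reads known, and shared loci tend to have more reads. The p of ANK2 is therefore not independent of that choice. Of the tested gene IDs 1.99% were called higher in this way and 0.0705% lower. Among the 4 genes only ANK2 was called. With replicate 1, 2 or 3 left out, 8.61%, 16.8% and 7.67% of its loci were shared, against 3.45%, 6.45% and 3.67% of the rest, and the call was kept each time. SPTBN1 had 9 of 76 loci in exactly 2 replicates (11.8%, interval 5.56 to 21.3%), SPTAN1 2 of 21 (9.52%, 1.17 to 30.4%) and ANK3 0 of 14 (0 to 23.2%), with an adjusted p of 1 by the same exact test for each.

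ANK2 loci also had more reads than others, and over all gene IDs loci in 2 or 3 replicates had more reads and were wider. A merged locus spans all its peaks and takes its highest reads over more replicates, so part of this can follow from the merging. The size of that part was not tested. The highest replicate of an ANK2 locus had a median of 6 reads, against 4 over all loci, and its median width was 77 nt, against 74 nt. Among loci with 3 to 4 reads in their highest replicate, 1.27% of 158 ANK2 loci and 1.88% of 92795 loci of all gene IDs were in 2 or 3 replicates. For 5 to 9 reads the values were 17% of 223 and 9.87% of 64889. For 10 to 19 reads they were 38.5% of 96 and 25.8% of 19751, and for 20 reads or more 57.5% of 40 and 48.5% of 4747. Limited to peaks with at least 5 reads, ANK2 had 15.3% of loci in 2 or 3 replicates, against 8.55% for the rest (Fisher's exact test, adjusted p = 0.0030). ANK2 loci were also dense, at 0.916 per kb of span, and denser still where most shared loci lay. Bins 3 and 4 had 163 and 134 of the 517 loci, of which 36 and 28 were in 2 or 3 replicates. Dense peaks can overlap without marking the same position, and the part of density in the overlap was not tested.

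**Figure D5:**
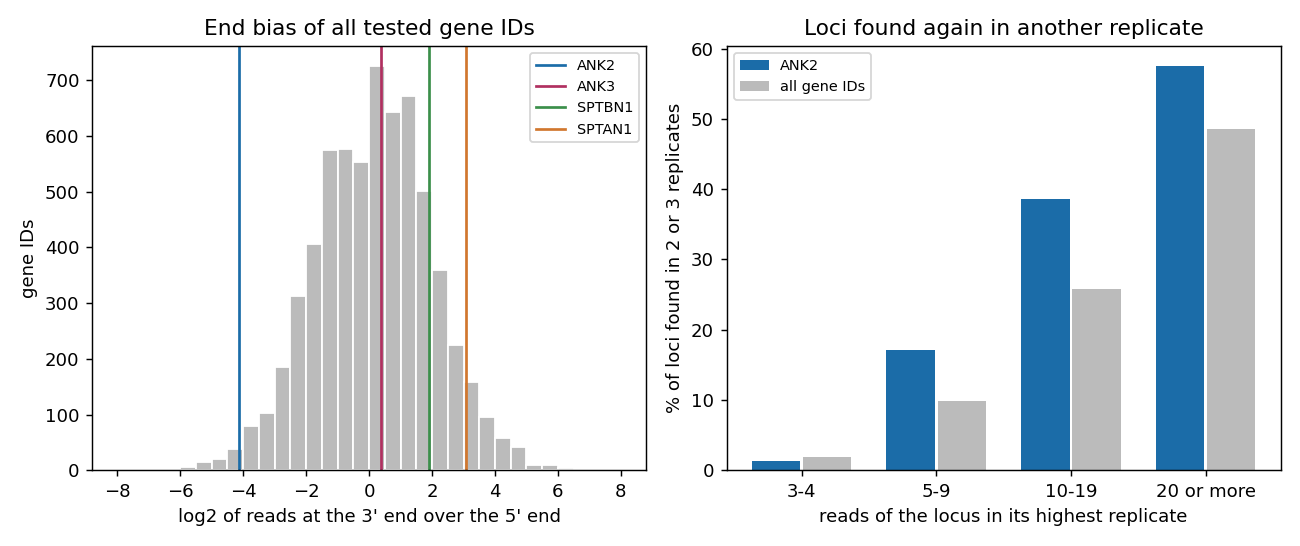
Left, number of gene IDs by log2 ratio of 3' over 5' reads among 6382 tested, with vertical lines for the 4 genes; right, percent of loci found in 2 or 3 replicates, by reads of the locus in its highest replicate, for ANK2 and for all gene IDs. ANK2 lies in the left tail at -4.13 and SPTAN1 to the right at 3.08, and ANK2 loci with 5 or more reads were found again more often than all loci of the same class.

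Between pairs of replicates, 78 ANK2 loci were in both replicates 1 and 3, which is 22.5% of the 346 loci of replicate 1 and 39.2% of the 199 of replicate 3. Replicates 1 and 2 had 32 in common, 9.25% of those of replicate 1 and 36% of the 89 of replicate 2. Replicates 2 and 3 had 24 in common, 27.0% and 12.1%. These percentages depend on the unlike sizes of the lists. With only a pair of replicates merged, 16.8% of ANK2 loci were in both replicates 1 and 3, against 6.45% of the loci of other gene IDs. For replicates 1 and 2 the values were 7.67% and 3.67%, and for replicates 2 and 3 they were 8.61% and 3.45%.

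Of the ANK2 loci, 17 of 517 were present in every replicate, against 1606 of 182182 over all gene IDs. All 17 lay in bins 1 to 5, between 10.2 and 254 kb from the 5' end of the span. Those bins had 45, 69, 163, 134 and 63 of the 517 loci and 99.0% of the ANK2 reads of replicate 2, so most loci of any kind lay there. The 17 loci held 348, 154 and 185 reads in replicates 1, 2 and 3, or 10.4%, 24.9% and 14.5% of the gene's reads. The first by mean share was chr4:113750453-113750644, 192 nt long and 10.2 kb into the span, with 24, 23 and 14 reads. The next, chr4:113827562-113827969, is 408 nt long and had 43, 13 and 39 reads. Reads of a locus are summed over its merged peaks, and the highest single peak in this locus had 25, 7 and 25 reads. After this locus came chr4:113948024-113948278 with 26, 23 and 10 reads, chr4:113926291-113926803 with 30, 10 and 19, and chr4:113836585-113836749 with 39, 8 and 14. Presence in all 3 replicates requires at least 3 reads in replicate 2, which is a larger share of its smaller total, so shares at these loci were not ranked between replicates.

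Some of the ANK2 loci highest by mean share came from a single replicate. A mean of shares weighs a read of replicate 2 most, because its total is the smallest. The locus ranked 3 by mean share, chr4:113753810-113753897, had 30 reads in replicate 2 and no listed peak in replicates 1 and 3. In replicates 1, 2 and 3, 62.4%, 55.1% and 45.7% of the ANK2 reads lay in loci seen in no other replicate. The matching share of reads over all gene IDs was not computed. By loci, 417 of 517 on ANK2 and 166625 of 182182 over all gene IDs were in a single replicate, so ANK2 had relatively fewer of them.

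On SPTBN1, the loci with the highest mean share lay towards both ends. This ranking leans on replicate 2, where a peak of 3 reads is 0.00277% of the listed reads, against 0.000408% in replicate 1. Replicate 1 peaks of 22, 24, 22 and 20 reads at 164, 174, 189 and 198 kb, all in the 3' part, ranked lower. There the first was chr2:54895883-54896149, at 99.6% of the span from its 5' end, with 29 reads in replicate 1, none in replicate 2 and 19 in replicate 3. The next was chr2:54722374-54722492, at 17.8%, with 5, 7 and 0 reads. The third, chr2:54695162-54695314, lay at 5.02% with 0, 6 and 3 reads. None was seen in every replicate. On SPTAN1 the first and second by mean share were chr9:131384471-131384536 and chr9:131392615-131392655, at 84.9% and 95.7% of the span. Each had 3 reads, the smallest listed size, in replicate 2 alone. The third was chr9:131395604-131395741, at 99.8% of the span, with 18 reads in replicate 1 alone. Replicate 1 peaks of 13, 13 and 11 reads at 35.2, 35.5 and 42.7 kb of SPTAN1 ranked lower. The first by mean share on ANK3 was chr10:61837649-61837727, at its 3' end, with 7 reads in replicate 3 alone. It was followed there by chr10:61992815-61992877 and chr10:62184423-62184489, with 4 reads each in replicate 3 alone; 2 further loci tied with them.

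Other gene IDs were listed inside the ANK2 span. On the same strand, ENSG00000234841 had a peak of 9 reads in replicate 1 and of 4 reads in replicate 2, at chr4:113747767-113747969. This stretch overlaps the ANK2 loci chr4:113747865-113747964, with 8 reads in replicate 1, and chr4:113747754-113747845, with 7 reads in replicate 2. Whether the same reads were listed under both IDs was not tested. The other gene IDs in the span faced ANK2 on the opposite strand. ENSG00000248152 had 73, 11 and 32 peaks with 729, 63 and 209 reads in replicates 1, 2 and 3, all on the minus strand between 31.0% and 44.7% of the ANK2 span, at chr4:113915492-113992949. In bin 5 it had more reads than ANK2 in replicates 1 and 3, 512 against 365 and 183 against 142, and fewer in replicate 2, 60 against 92. With ENSG00000249373, the opposite strand held 18.2%, 9.24% and 14.3% of the reads listed on either strand under these IDs and ANK2. Whether the authors' counting used strand is not given in the sources used here, so reads of both strands may not be told apart. Only 12, 1 and 3 ANK2 peaks, with 146, 5 and 25 reads, overlapped an opposite-strand peak of the same replicate. Without all such peaks the mean ANK2 share was 0.442%. No other gene ID had peaks inside the spans of ANK3, SPTBN1 and SPTAN1.

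Across the 3 replicates, the gene IDs whose shares were most like those of ANK2 were ENSG00000144868, at a Euclidean distance of 0.36 between log2 shares, and ENSG00000230590, at 0.55, among 1833 gene IDs with at least 10 reads in every replicate. ENSG00000144868 had 3215, 586 and 1007 reads. For SPTBN1 they were ENSG00000015479, at 0.22, with 452, 30 and 119 reads, and ENSG00000137073, at 0.26. With 3 points a profile, this is a description. SPTAN1 and ANK3 had fewer than 10 reads in a replicate and were not compared.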

How the data were processed

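CSTF2tau sCLIP peaks of 3 replicates were analysed. Per the submitters' processing notes the build was hg19 and the tools included FastQC, SAMtools, STAR and bedtools. The peak caller and annotation are not given in the sources used here. Each deposited peak has the authors' p-value, below 0.05 in every list, and a name that joins gene ID, running number and a further integer, never under 3. The last was read as reads because its Spearman correlation with the p-value across peaks was -0.988, -0.973 and -0.964 in replicates 1, 2 and 3. Replicate 1 carries 1-digit ID versions only, so IDs were matched without version.

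Peaks were called per replicate. Peaks of a gene ID overlapping by at least 1 nt were merged into loci over replicates (pandas 2.3.3), and a peak was placed by its midpoint. Tests used SciPy 1.17.1 and were fitted over all gene IDs. They were also run on simulated independent counts, which cannot show false calls from linked reads, linked loci or spread between replicates. Exact Clopper-Pearson intervals cover counting error only, as listed reads may stem from the same molecule. The sources used here do not say whether the replicates were separate cultures, so their spread may be technical.

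The members, lists and tests were chosen with earlier results of these data known. Named were all 4 members, per member up to 5 loci in all 3 replicates and the 3 with the highest mean share, and the 2 gene IDs nearest in log2 share. The planned list of other spectrins, adducins, band 4.1 proteins and ankyrin partners, and the marker list, were not analysed here, since 0 gene IDs matched a symbol. No hg19 sequence or annotation was used, so exons, introns and bound sequences are not given.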

Additional observations from a re-analysis of the deposited data

How the results depend on the processing

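Of 151 alternative values, 131 stayed within 1 SD of the replicates, within 1.5 times for counts or on the same side of the test. None changed a called direction, 17 moved, 2 lost a call (the end calls of ANK2 with the outermost locus and of SPTAN1 with the median-p filter, which keeps peaks whose p is no higher than the median of their replicate) and 1 gained it (SPTBN1 without replicate 2). The SD of ANK3, SPTBN1 and SPTAN1 is wide, so staying within it says little. The 5' call of ANK2 and its excess of shared loci held in each of the 3 fits that left out a replicate, with log2 ratios of -6.76 to -3.45 and shared loci of 7.67% to 16.8%. Each alternative that removed peaks redrew the listed spans from the peaks kept, so ends and bins could move. Bins 1 to 5 of the redrawn SPTAN1 span held a mean of 88.0% of its reads under the median-p filter, against 27.5% on the full span. With a replicate left out they held 14.3% to 41.2% (14.3% without replicate 1, 41.2% without replicate 2). End calls over all gene IDs were 1158 (3') and 900 (5'). They were 734 and 590 under the median-p filter, 218 and 225 with peaks counted in place of reads, 145 and 59 with the outermost locus, and 617 to 1171 and 540 to 1051 with a replicate left out. Gene IDs with more shared loci numbered 141, but 82 under the median-p filter, 77 with peaks of at least 5 reads, and 62 to 71 with a replicate left out. Those with fewer numbered 5, but 3 with peaks of at least 5 reads and 0 to 6 with a replicate left out; the 0 is by Fisher's exact test without replicate 1, where 1 gene ID had an unadjusted p below 0.05. The cause of these shifts, and the part of the redrawn spans in those of ends and bins, was not tested. Leaving out peaks overlapped on the opposite strand was chosen after seeing the data. SPTAN1 ends without replicate 1, with peaks counted or with the outermost locus, and ANK3 without replicate 3, with peaks counted or, for shared loci, with at least 5 reads, gave no test, because too few reads or loci were left. No paired analysis was possible because there is 1 group.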
